A study of Ovis aries with 4 samples.

Results

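Solute carriers are membrane proteins that move nutrients, ions, metals and metabolites across the plasma membrane and the membranes of organelles. The solute carrier genes described here were those whose gene name in the deposited peak lists begins with SLC or SLCO followed by a digit, and 67 of the 5261 genes with a peak met that rule. The label held for 66 of them. The exception was SLC9A3R1, also named NHERF1, which encodes a scaffold protein and not a transporter. Having a peak in at least 1 list is part of the rule, so the values below describe in which list the peaks were, where and how high.

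Ovarian tissue of Cele black sheep was sampled at 1 to 2 years (young) and at 5 to 6 years (aged), with no treatment named, and RNA fragments were immunoprecipitated with an antibody against N6-methyladenosine (m6A), beside an input library made without antibody. The series had 4 samples, and the 2 lists of peaks from the immunoprecipitates, 1 for each age, were analysed here. The young samples were labelled replicate 1 and the aged ones replicate 2. The labels do not say how many animals a sample held. Because each age has a single list, differences between the ages could not be set against replicate spread and were not tested, and the 95% Wilson intervals given for shares cover counting error only.

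m6A is placed on messenger RNA by a methyltransferase complex, mostly near the stop codon and in the 3′ UTR, and is read by proteins that act on splicing, translation and decay. In the ovary, solute carriers supply growing follicles and luteal cells with glucose, amino acids and metals, and the granulosa cells pass such substrates on to the oocyte. A peak is a stretch of RNA enriched in the immunoprecipitate. The authors gave each peak a fold enrichment, a p and a p adjusted for multiple testing. These belong to each list separately, so young and aged folds are set side by side without a difference between them. Sequencing depth and transcript level were not analysed here. Where a gene is absent from the list of a whole tissue, fewer cells of a type, less RNA per cell and less m6A cannot be told apart. Genes marking the tissue had peaks: 5 of 10 granulosa, 5 of 9 theca and luteal, 8 of 12 oocyte, 6 of 8 stromal, 7 of 8 endothelial, 5 of 7 macrophage and 0 of 4 erythroid markers, where 24.5% of all protein-coding genes had one.

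The share of named solute carriers with a peak was below that of protein-coding genes as a whole. In a table of sheep genes, 364 genes had a name beginning with SLC or SLCO, and 67 of these had a peak in either list (18.4%, interval 14.8 to 22.7), against 24.5% of 21300 protein-coding genes. The 67 were the members without SLC9A3R1, plus SLC4A1AP, which the lists file as a LOC gene. The lower share was present in the young list (12.4%, 9.37 to 16.1, against 17.9%) and in the aged list (10.7%, 7.94 to 14.3, against 14.4%). Transcript level, which was not analysed here, was not tested as part of that result. Among families with a member and at least 10 named genes, SLC39, of zinc importers, had 5 of 14 with a peak. SLC2, of sugar transporters, had 4 of 13, and SLC25, of mitochondrial carriers, 12 of 45. The families SLC22 of organic ion transporters and SLC6 of amine and amino acid transporters had 1 of 18 and 1 of 19. Counts per family are small, and differences between families were not tested.

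The 67 genes divided into 29 with young peaks only, 21 with aged peaks only and 17 with both. As shares these are 43.3% (32.1 to 55.2) young-only, 31.3% (21.5 to 43.2) aged-only and 25.4% (16.5 to 36.9) in both lists. Over all genes with a peak the shares were 41.3% young-only, 26.9% aged-only and 31.8% in both. Each of these values lay inside the interval for the solute carriers, so their division between the lists was near the background. The balance of young-only and aged-only genes depended on the peaks counted, in the solute carriers and over all genes alike. With the young list shortened to the 3656 peaks of the aged list, 24 solute carriers were young-only and 23 aged-only, beside 37.4% and 32.8% of all genes. When stop and start codon labels were left out the order turned, to 16 young-only and 23 aged-only, as it did over all genes (32.4% and 41.3%). With a fold of at least 2 there were 24 young-only and 12 aged-only (54.7% and 26.1% of all genes), and with an adjusted p up to 0.01 there were 30 and 18 (43.8% and 25.4%).

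**Figure D1:**
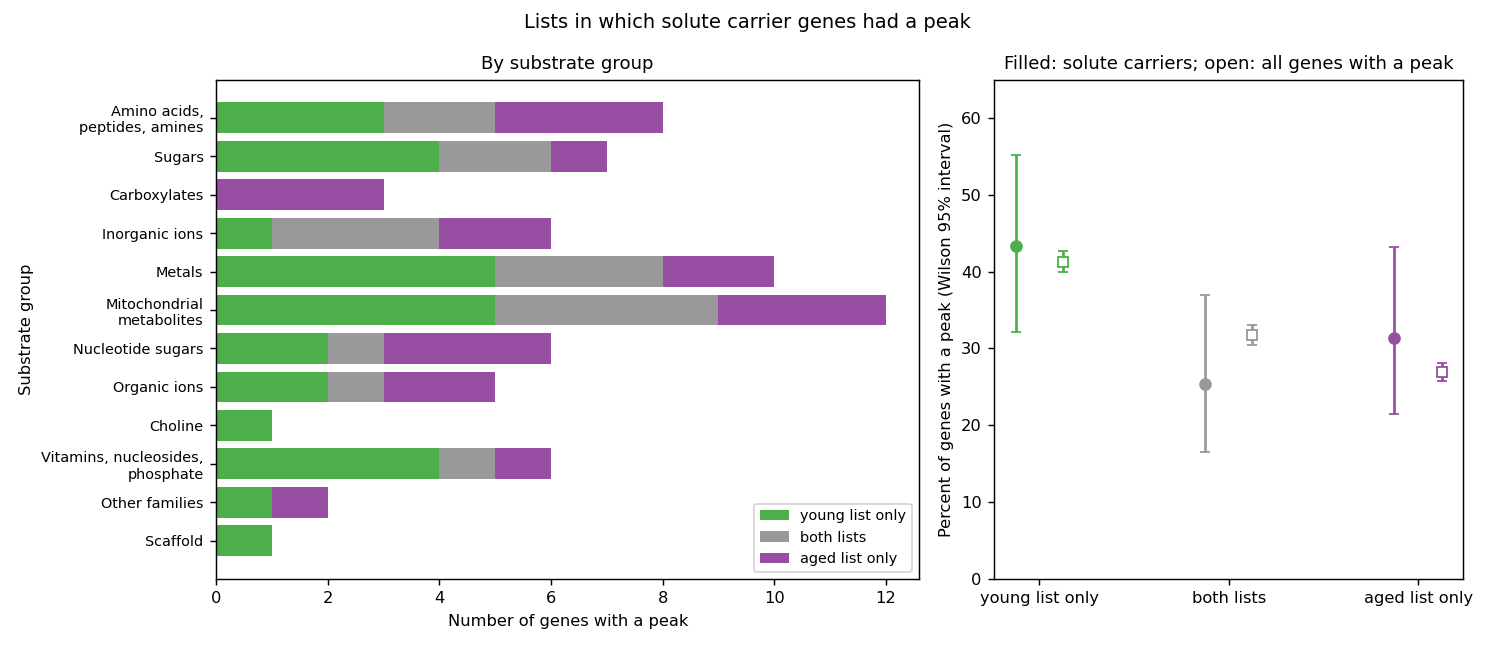
Left, number of solute carrier genes with a peak in each substrate group, coloured by whether the peak was in the young list only, both lists or the aged list only. Right, percent of genes in each class with Wilson 95% intervals for the 67 solute carriers (filled circles) and all 5261 genes with a peak (open squares). The squares lie inside the intervals of the circles in all 3 classes, and the 3 carboxylate genes were all in the aged list only.

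Most solute carriers had a single peak, and the 67 genes held 48 young and 42 aged peaks. The median fold was 2.17 among the young peaks (range 1.5 to 4.67) and 2.05 in the whole young list. Among the aged peaks it was 1.82 (range 1.5 to 5.00), and 1.88 in the whole aged list. A fold of at least 2 was reached by 60.4% of the young peaks, against 58.3% of the whole list, and by 38.1% of the aged peaks, against 42.7%. The members were thus near the middle of each list by fold. The median log10 p was -17.2 in the young and -7.02 in the aged peaks, beside -15.3 and -6.22 over the whole lists. An adjusted p above 0.05 was found for no young peak and for 2 aged peaks, in SLC38A2 and SLC35D2. In the whole lists it was found for 10 of 4378 young and 120 of 3656 aged peaks.

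**Figure D2:**
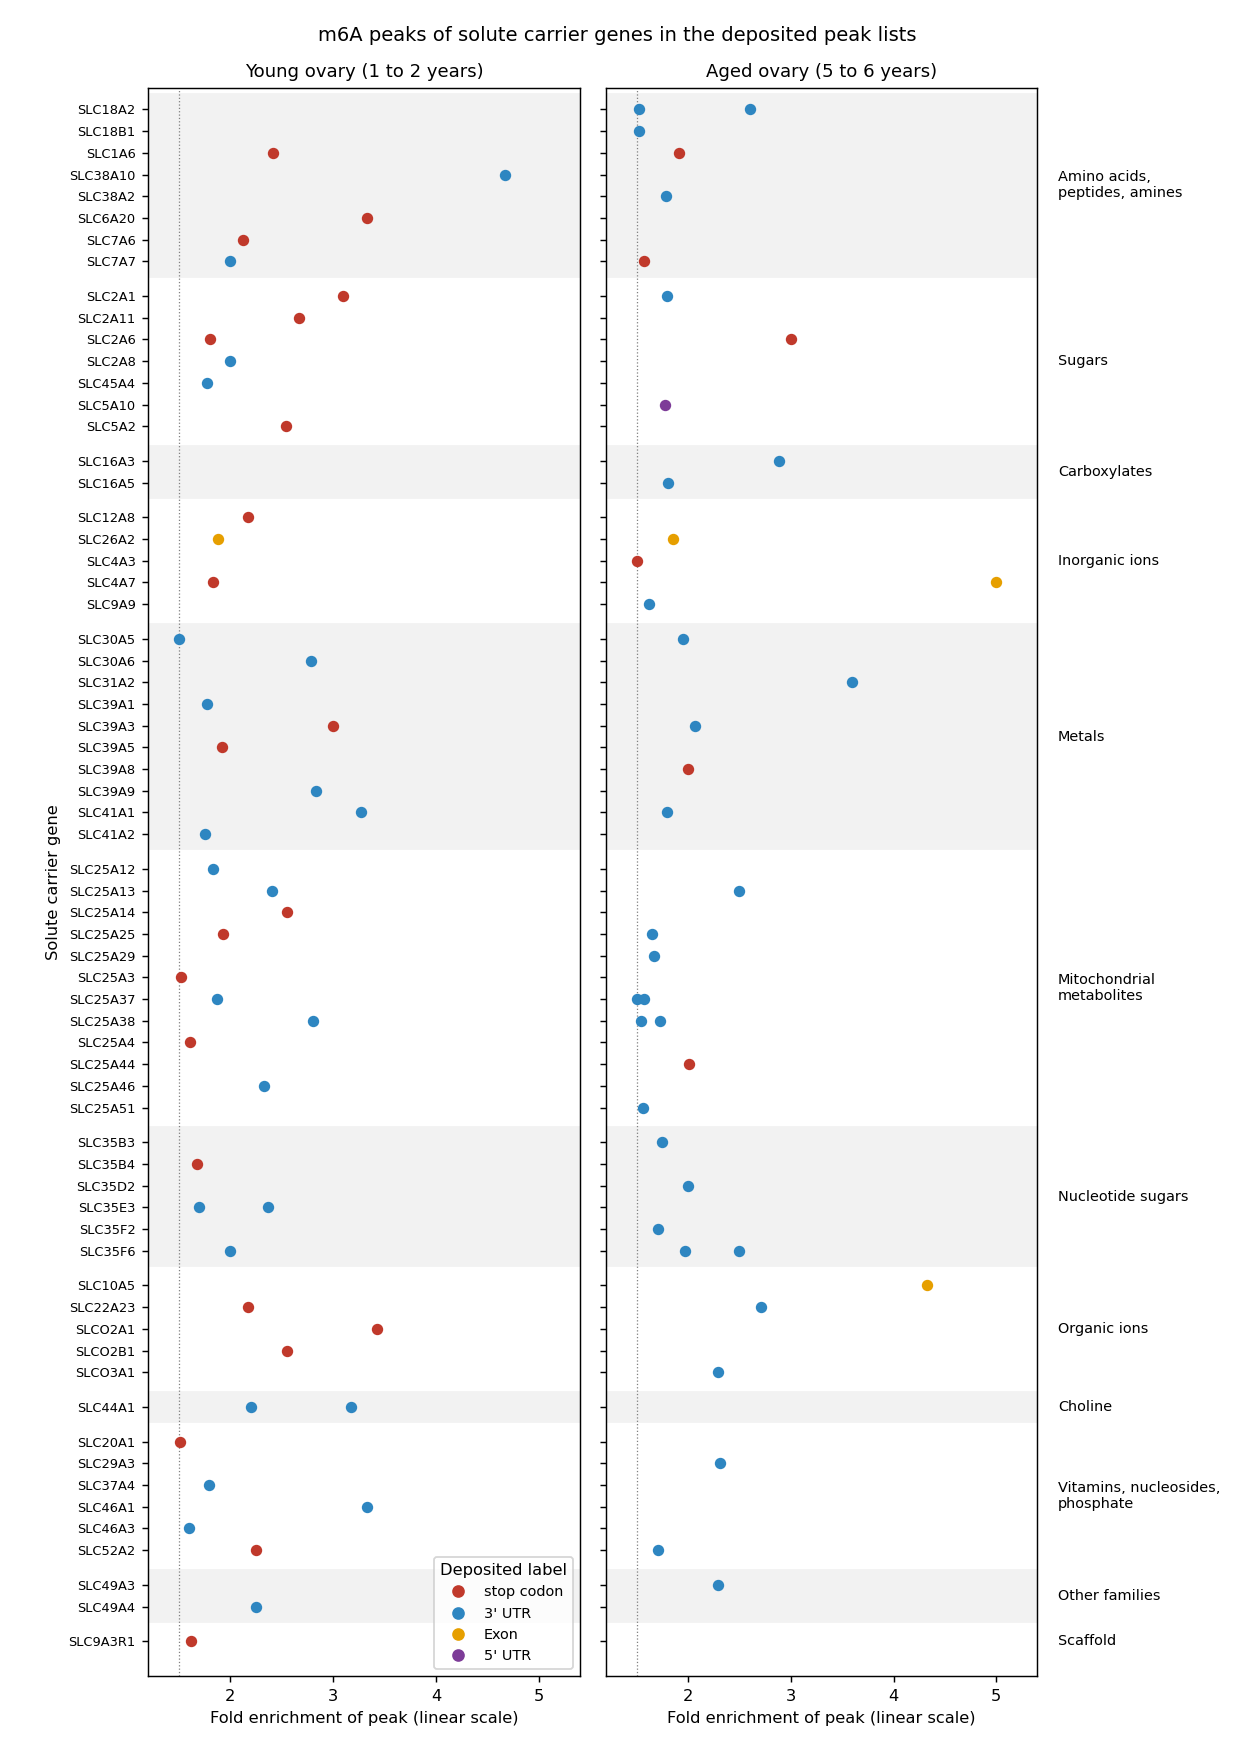
Fold enrichment, on a linear scale, of every young peak (left) and aged peak (right) of 65 of the 67 solute carrier genes, grouped by substrate and coloured by deposited label. The dotted line at 1.5 is the smallest fold in the deposited lists, and most points lie between it and a fold of 3.00, with SLC38A10 (4.67) highest in the young panel and SLC4A7 (5.00) in the aged panel.

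The strongest young peak lay in SLC38A10, a putative sodium-coupled amino acid transporter, on the plus strand of chromosome 11 (50973075 to 50973225). It was labelled 3′ UTR, with a fold of 4.67 and an adjusted p of 3.16e-21, rank 32 by fold among 4378 young peaks. SLCO2A1, the prostaglandin transporter, came next with 3.43 and a stop codon label on chromosome 1 (256069245 to 256069394, adjusted p 2.51e-19). The intestinal-type folate transporter gene SLC46A1 on chromosome 11 (19830786 to 19830983, 3′ UTR, adjusted p 1.58e-19) and the proline and imino acid transporter gene SLC6A20 on chromosome 19 (53553562 to 53556206, stop codon, adjusted p 2.51e-14) both had 3.33. The fifth was SLC41A1, a magnesium transporter gene, with 3.27 and a 3′ UTR label on chromosome 12 (3391708 to 3391956, adjusted p 1e-15). Of these 5, only SLC41A1 had an aged peak. Over all genes, 1671 of the 3846 in the young list also had an aged peak, and 5 genes are too few to set against that share.

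The strongest aged peak lay in SLC4A7, an electroneutral sodium bicarbonate cotransporter gene, with a fold of 5.00 and rank 15 by fold among 3656 aged peaks. It was labelled exon and ran over 16513 bases of genome on the minus strand of chromosome 19 (1772632 to 1789144), with a peak width of 300 bases (adjusted p 3.8e-08). SLC10A5, of the bile acid cotransporter family, followed with 4.33, labelled exon on chromosome 9 (93810942 to 93811289, adjusted p 5.89e-10), and SLC31A2, a low-affinity copper transporter gene, with 3.60, labelled 3′ UTR on chromosome 2 (10564236 to 10564481, adjusted p 2.34e-05). SLC2A6, a glucose transporter gene of the lysosome, had 3.00 and a stop codon label on chromosome 3 (2591306 to 2591552, adjusted p 1e-22). The lactate exporter gene SLC16A3 had 2.89 and a 3′ UTR label on chromosome 11 (50138841 to 50139140, adjusted p 2e-12). Only SLC4A7 and SLC2A6 of these 5 also had a young peak. Over all genes, 1671 of the 3086 in the aged list did, and 5 genes are again too few to compare.

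Fold and significance did not rank the peaks alike. The aged peak of SLC7A7, with a fold of 1.57, was the tenth most significant of the whole aged list (adjusted p 3.98e-36), and the aged peak of the zinc and manganese importer gene SLC39A8 (fold 2.00, adjusted p 3.98e-23) ranked 50. Among young peaks the most significant were those of SLC1A6 (fold 2.41, adjusted p 2e-49, rank 83) and SLC25A14 (2.55, 3.98e-48, rank 90). SLC4A7, highest by fold, ranked 994 by p.

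**Figure D3:**
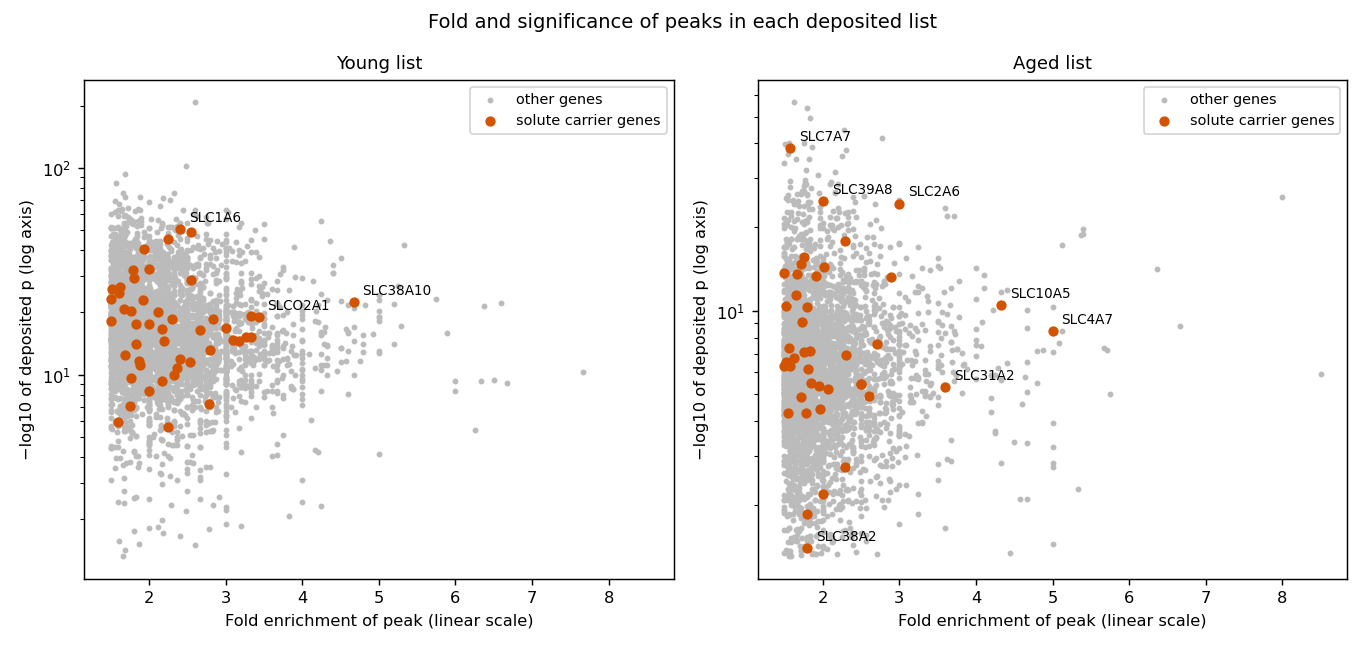
Fold enrichment (linear axis) against −log10 of the deposited p (log axis) for all peaks of the young (left) and aged (right) lists, with solute carrier peaks in orange. In the aged panel SLC7A7 is near the top at a fold of 1.57, and among solute carriers SLC4A7 is farthest right at 5.00 and SLC38A2 is lowest.

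Amino acid, peptide and amine transporters contributed 8 genes, 3 young-only, 3 aged-only and 2 in both lists. SLC7A6 and SLC7A7 encode light chains of the y+L system, which exchanges cationic for neutral amino acids. SLC7A6 had a young peak only (2.12, stop codon). SLC7A7 had a young fold of 2.00 and an aged fold of 1.57, and both peaks began at the same base, but the aged one ran 249 bases farther 3′ and was labelled stop codon, where the young one was labelled 3′ UTR. SLC1A6, a glutamate transporter gene, had folds of 2.41 and 1.91 and a stop codon label at both ages. SLC38A10 and SLC6A20 were young-only, as given above. The glutamine transporter gene SLC38A2 was aged-only with 1.79, but its adjusted p was 0.116, the weakest among solute carriers. SLC18A2, the vesicular monoamine transporter gene, had 2 aged peaks on chromosome 22, both labelled 3′ UTR and 1841 bases apart. The first (37140455 to 37140604) had a fold of 2.60 and an adjusted p of 0.000251, the other (37142446 to 37142695) 1.52 and 6.76e-10. SLC18B1, a vesicular polyamine transporter gene, was aged-only with 1.52.

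Sugar transporters contributed 7 genes, of which 4 were young-only, 1 was aged-only and 2 were in both lists. SLC2A1 encodes GLUT1, the widespread basal glucose transporter. Its young peak, labelled stop codon on the minus strand of chromosome 1 (17373828 to 17374027), had a fold of 3.10 and an adjusted p of 3.98e-15. Its aged peak, labelled 3′ UTR, lay 298 bases farther 5′ (17374326 to 17374724) with a fold of 1.80 and an adjusted p of 0.0417. GLUT1 is therefore counted in both lists through separate peaks. SLC2A6 had folds of 1.80 and 3.00 in peaks that shared their 3′ end. SLC2A8, which encodes an intracellular hexose transporter, was young-only with 2.00, as were SLC2A11 (2.67), SLC5A2, the renal-type sodium glucose cotransporter gene (2.54), and SLC45A4 (1.77). SLC5A10, a sodium mannose cotransporter gene, was aged-only with 1.78 and carried the sole 5′ UTR label among the 90 solute carrier peaks. That label was also rare in the whole lists, with 1.55% of young and 2.49% of aged peaks.

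The 3 carboxylate transporter genes, all of the SLC16 family, were aged-only. SLC16A3, with a fold of 2.89, encodes MCT4, through which glycolytic cells export lactate. SLC16A5, of the same family, had 1.81. The family has 14 named genes, and 3 genes are too few to set against the background of 26.9%.

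Transporters of inorganic ions contributed 6 genes, 3 of them in both lists. The sulfate transporter gene SLC26A2 had folds of 1.88 and 1.85. Both SLC26A2 peaks were labelled exon, and the aged peak ended at the same base as the young one and began 50 bases earlier. SLC4A7 is the contrasting case. Its young peak, labelled stop codon (1766556 to 1766706), had a fold of 1.83, and the strong aged peak lay 5925 bases upstream. SLC12A8 was young-only (2.17). The anion exchanger gene SLC4A3 (1.5) and the endosomal sodium proton exchanger gene SLC9A9 (1.62) were aged-only, with folds at or near the smallest in the lists.

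Metal transporters contributed 10 genes, 5 young-only, 2 aged-only and 3 in both lists. SLC39 proteins (ZIP) bring zinc into the cytosol and SLC30 proteins (ZnT) take it out or into organelles. Of the SLC39 genes, SLC39A9 (2.83), SLC39A5 (1.92) and SLC39A1 (1.77) were young-only, SLC39A8 was aged-only (2.00), and SLC39A3 had 3.00 and 2.07 in overlapping peaks. Of the SLC30 genes, which load zinc into the secretory pathway, SLC30A6 was young-only (2.78), and SLC30A5 had the same peak at both ages to the base, on chromosome 16 (10643587 to 10643786), with folds of 1.5 and 1.95. The magnesium transporter gene SLC41A1 had 3.27 and 1.80 in peaks sharing their 3′ end, and SLC41A2 was young-only (1.75). SLC31A2 was aged-only, as given above.

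The SLC25 family of mitochondrial carriers, which pass metabolites across the inner membrane, contributed the most genes, 12, with 5 young-only, 3 aged-only and 4 in both lists. SLC25A12 and SLC25A13 encode the aspartate glutamate carriers of the malate aspartate shuttle. SLC25A12 was young-only (1.83) and SLC25A13 had folds of 2.40 and 2.50, with peaks overlapping by 51 bases. The phosphate carrier gene SLC25A3 (1.52) and the ADP/ATP translocase gene SLC25A4 (1.61), which serve oxidative phosphorylation, had young peaks only, with low folds. Such a pair is too few to set against the 41.3% of all genes with a peak that were young-only. Whether reads of SLC25A4 were shared with its close gene copies was not tested. SLC25A14, which encodes a carrier of the uncoupling protein type, was young-only with 2.55, and SLC25A46, of the outer membrane, with 2.33.

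Carriers for iron and haem synthesis were found at both ages. SLC25A37 encodes mitoferrin-1, which imports iron. It had 1 young peak with a fold of 1.87 and 2 aged peaks on chromosome 2 (42199286 to 42199485 and 42199584 to 42200080) with 1.5 and 1.57, both labelled 3′ UTR at an adjusted p of 2.82e-06. SLC25A38, which imports glycine, likewise had 1 young peak (2.80) and 2 aged peaks on chromosome 19 (12659346 to 12659493 and 12659641 to 12659837). The aged folds were 1.54 and 1.73, both labelled 3′ UTR, with adjusted p of 0.000204 and 1.05e-08. In each gene 1 of the aged peaks overlapped the young one and the other lay 49 bases to its 5′ side. SLC25A25, an ATP-Mg phosphate carrier gene, had 1.93 and 1.65. The aged-only carriers were SLC25A44, for branched-chain amino acids (2.01), SLC25A29, for basic amino acids (1.67), and SLC25A51, for NAD (1.56).

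The SLC35 family, which carries nucleotide sugars into the Golgi and endoplasmic reticulum and includes orphans, contributed 6 genes, 2 young-only, 3 aged-only and 1 in both lists. SLC35B4 was young-only with 1.67. SLC35E3 had 2 young peaks labelled 3′ UTR on chromosome 3, 1934 bases apart (151227654 to 151227803 with 1.69 and adjusted p 6.31e-13, and 151229738 to 151229887 with 2.37 and 2.51e-11). SLC35B3, which carries the sulfate donor PAPS (1.75), SLC35F2 (1.71) and SLC35D2 (2.00, adjusted p 0.0813) were aged-only. SLC35F6 had a young peak with 2.00 and 2 aged peaks on chromosome 3, all labelled 3′ UTR. The aged peak with 2.50 (33916584 to 33916732, adjusted p 8.32e-05) had no young counterpart, and that with 1.97 (33917921 to 33918119, adjusted p 0.000145) overlapped the young peak.

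Among organic ion transporters, SLCO2A1 (3.43) and SLCO2B1, whose product takes up steroid sulfates (2.55), were young-only with stop codon labels, and SLCO3A1 (2.29, adjusted p 0.024) and SLC10A5 (4.33) were aged-only. SLC22A23, an orphan of the organic ion family, had a young peak labelled stop codon (2.17) and an aged one labelled 3′ UTR (2.71) that lay 2096 bases upstream. The choline transporter gene SLC44A1 had 2 young peaks on chromosome 2, both labelled 3′ UTR, although 49708 bases of genome separated them. They had folds of 3.17 (17582727 to 17582877, adjusted p 1.26e-13) and 2.20 (17632586 to 17632736, adjusted p 6.31e-15). Their deposited p before adjustment was the same.

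Vitamin, nucleoside and phosphate transporters contributed 6 genes, 4 young-only, 1 aged-only and 1 in both lists. SLC46A1 (3.33), its lysosomal relative SLC46A3 (1.60), the glucose 6-phosphate exchanger gene SLC37A4 (1.79) and the phosphate importer gene SLC20A1 (1.51) were young-only. The lysosomal nucleoside transporter gene SLC29A3 was aged-only with 2.31. The riboflavin transporter gene SLC52A2 had folds of 2.25 and 1.71 in overlapping peaks. Of the 2 remaining transporter genes, SLC49A4 was young-only (2.25) and SLC49A3 aged-only (2.29). The scaffold gene SLC9A3R1 was young-only with 1.62.

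For the genes found in both lists, peak positions were compared. Young and aged peaks shared at least 1 base of the same strand in 14 of 17 genes (82.4%, 59.0 to 93.8), against 84.1% of all genes with peaks at both ages. The exceptions were SLC2A1, SLC4A7 and SLC22A23, and in all 3 the aged peak lay to the 5′ side of the young one. That direction was not counted over all 265 genes with peaks at both ages and no overlap, so it has no background here. Counted over all solute carrier peaks, 29.2% (18.2 to 43.2) of the young ones overlapped an aged peak, against 34.3% of the young list. Of the aged ones, 33.3% (21.0 to 48.4) overlapped a young peak, against 41.0% of the aged list. By the lower of their folds the leading overlapping pairs were those of SLC25A13 (2.40 young, 2.50 aged), SLC39A3 (3.00, 2.07), SLC35F6 (2.00, 1.97), SLC1A6 (2.41, 1.91) and SLC26A2 (1.88, 1.85). The pair of SLC25A13, both labelled 3′ UTR, lay on chromosome 4 (14232838 to 14233038 young, 14232988 to 14233188 aged, adjusted p 3.16e-11 and 1.7e-05), and that of SLC39A3 on chromosome 5 (18734014 to 18734212 young, 18733964 to 18734162 aged, adjusted p 3.16e-17 and 2.69e-05). SLC1A6 (8042509 to 8042709 young, 8042459 to 8042709 aged, adjusted p 2e-49 and 1.58e-12) and SLC26A2 (59087022 to 59087221 young, 59086972 to 59087221 aged, adjusted p 7.94e-12 and 1.55e-05) also lie on chromosome 5. The young peak of SLC35F6 (33918020 to 33918169, adjusted p 9.12e-08) shared 100 bases with its aged partner. With folds of at least 2 in both lists, 4 genes were found in both. SLC39A3 and SLC25A13 were so through overlapping pairs, SLC35F6 through its other aged peak, 1287 bases from the young one, and SLC22A23 through peaks that do not overlap.

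**Figure D4:**
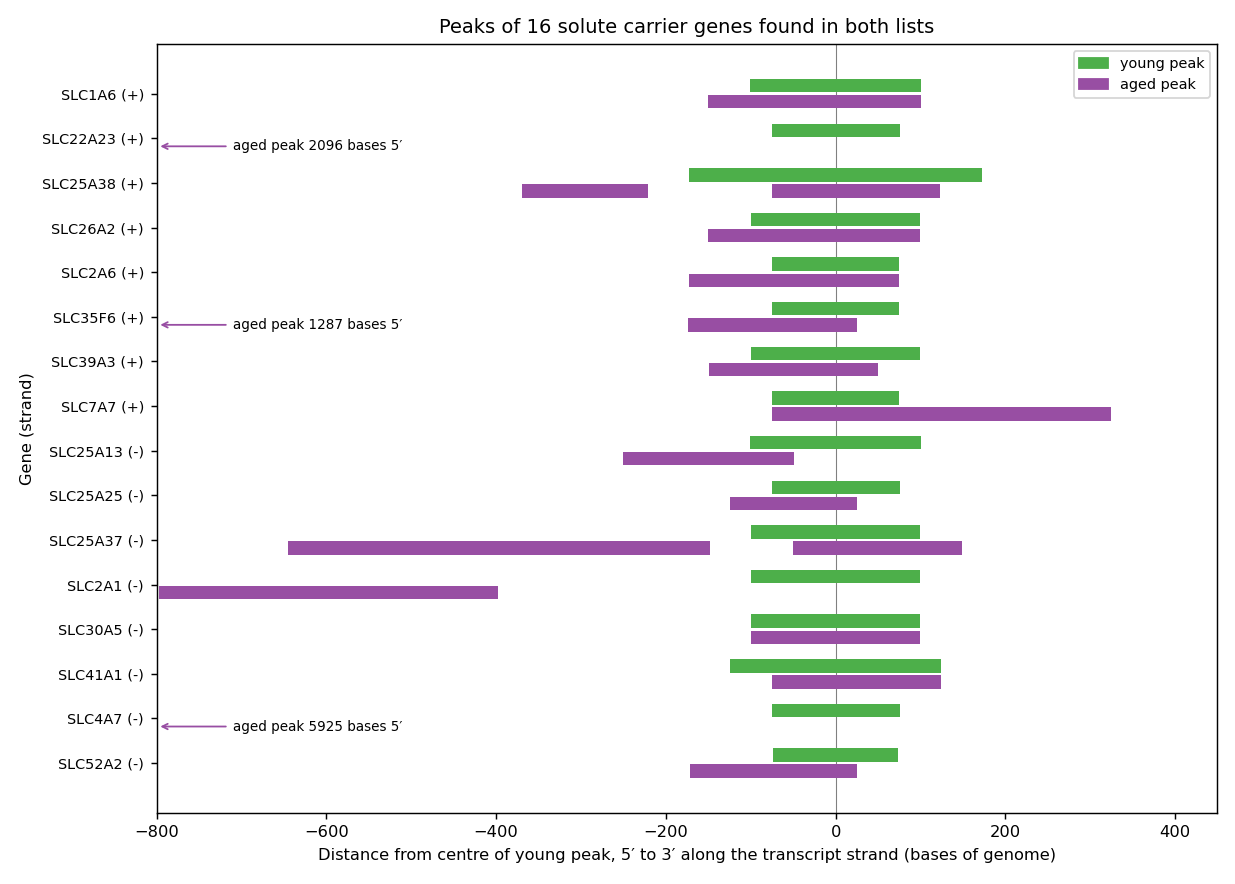
Genomic extent of young (green) and aged (purple) peaks of 16 of the 17 solute carrier genes found in both lists, as distance in bases from the centre of the young peak, drawn 5′ to 3′. Arrows mark aged peaks beyond the axis, with the gap in bases. The peaks of SLC30A5 coincide, and those of SLC2A1, SLC4A7 and SLC22A23 do not touch.

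The boundaries of overlapping peaks differed in steps of about 50 bases. For all 28 boundaries of the 14 overlapping solute carrier pairs, the young and aged positions differed by 0 or by a multiple of 50 bases to within 3 bases, as did 89.7% over all overlapping pairs. The 3′ ends were identical in 6 of the 14 pairs (42.9%, against 35.8% of all pairs). In SLC25A25, SLC39A3 and SLC52A2 a stop codon label in the young list stood against a 3′ UTR label in the aged list. In each of the 3 the aged peak ended 49 or 50 bases short of the young one, which is 1 step. Over all genes, the aged peak ended short by at most 1 step in 80.1% of the 287 pairs with that change of label. In these 3 genes the label differed together with a 1-step difference at the 3′ boundary.

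The order of the labels along the genes ran against the order of the features they name. A stop codon label in one list and a 3′ UTR label in the other were found in 6 of the solute carriers with peaks at both ages, SLC22A23, SLC25A25, SLC2A1, SLC39A3, SLC52A2 and SLC7A7. In all 6 the peak labelled stop codon ended farther 3′ than the peak labelled 3′ UTR, whereas on a transcript the 3′ UTR follows the stop codon. Over all genes this held for 332 of 334 overlapping pairs with that difference of label (99.4%). This was counted after the positions had been seen. The labels are therefore given as deposited, and whether a peak so labelled covers a stop codon was not tested.

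Peak labels of solute carriers were near those of the lists. A stop codon label was carried by 47.9% (34.5 to 61.7) of their young peaks, against 41.3% of the young list, and by 19.0% (9.98 to 33.3) of their aged peaks, against 15.3%. The aged label depended on the strand, with 8 of 25 on the plus strand so labelled (27.5% of all aged plus-strand peaks) and 0 of 17 on the minus strand, where 3 counts, taken as the limit that a count of 0 allows, would be 17.6% (2.58% of all aged minus-strand peaks). Young peaks were so labelled in 14 of 25 cases on the plus strand, against 43.1% of that list, and in 9 of 23 on the minus strand, against 39.0%. A 3′ UTR label was carried by 24 of 48 young and 30 of 42 aged solute carrier peaks, near the 47.3% and 66.4% of the whole lists.

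Peaks crossing an intron, a property looked at after the peaks had been seen, were few in solute carriers. Of 48 young peaks, 2 crossed an intron (4.17%, 1.15 to 14.0), in SLC25A4 and SLC6A20, against 16.9% of the young list. Of 42 aged peaks, 1 did (2.38%, 0.422 to 12.3), that of SLC4A7, against 22.5%. The intervals lay below the shares of the whole lists at both ages. None of the 8 young and 5 aged peaks of ABC transporter genes, the most similar class, crossed an intron, so few such peaks are not shown to be particular to solute carriers. An exon label was carried by 1 of the young peaks, that of SLC26A2 (2.08%, 0.369 to 10.9, against 9.30%), and by 3 of the aged ones, those of SLC26A2, SLC4A7 and SLC10A5 (7.14%, 2.46 to 19.0, against 15.3%), and both intervals include the share of the whole list. With both ages counted together 4 of 90 peaks carried it (4.44%, 1.74 to 10.9, against 12.0%), an interval below the share of the lists, although the SLC26A2 peaks at both ages overlap. No solute carrier peak was labelled start codon, a label carried by only 0.571% of the young list and 0.492% of the aged list.

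Proteins that power, anchor or regulate solute carriers were counted from a separate list. Of 33 such gene names, 9 had a peak, near the 24.5% of all protein-coding genes, with 3 young-only, 4 aged-only and 2 in both lists. ATP1B1 (1.73), which encodes a beta subunit of the sodium pump that maintains the gradient for sodium-coupled transport, was aged-only, as was NEDD4L (1.83), a ubiquitin ligase gene acting on transporters. BSG, the chaperone of SLC16 lactate transporters, was young-only (2.56), as were the ion cotransport kinase genes WNK4 (3.18) and WNK1 (1.56). CAB39 (1.60 and 4.25) and CAB39L (1.67 and 2.18), which activate kinases downstream of WNK, were in both lists.

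Enzymes that use the transported fuels had peaks in 7 of 25 cases, also near 24.5%. LDHA (1.94) and LDHB (1.67), the lactate dehydrogenase genes, were young-only. HK2, which phosphorylates imported glucose (1.67), and the glutamine synthetase gene GLUL (1.54) were aged-only. The mitochondrial pyruvate carrier gene MPC2 (2.46 and 1.61) and the asparagine synthetase gene ASNS (1.85 and 1.72) were in both lists. Of 18 metal-handling genes 4 had a peak, again near that share: the copper chaperone gene ATOX1 (2.40), the zinc-sensing transcription factor gene MTF1 (2.38) and the ferritin gene FTH1 (1.52) were young-only, and TF, encoding transferrin, was aged-only (1.67, adjusted p 0.0977). ABC transporters, the other large class of membrane transporters, had 8 genes with a peak, 3 young-only, 2 aged-only and 3 in both lists. In these lists the ABC counts were too small to set apart from the solute carriers.

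By the membrane named in the deposited gene ontology terms, 33 solute carriers were annotated to the plasma membrane, 11 young-only, 10 aged-only and 12 in both lists. Of all 980 genes with a peak and that term, 38.5% were young-only, 29.5% aged-only and 32.0% in both, so the solute carrier shares of 33.3%, 30.3% and 36.4% were near them. The lysosomal membrane was named for 6 genes, SLC29A3, SLC2A6, SLC35F6, SLC39A8, SLC46A3 and SLC49A4, with 2 in each class, beside 39.5% young-only, 26.3% aged-only and 34.2% in both over all genes with that term. The apical membrane was named for 11, among them the scaffold gene SLC9A3R1, with 5 young-only, 3 aged-only and 3 in both lists. Over all genes with that term, 37.3% were young-only, 26.7% aged-only and 36.0% in both. The basolateral membrane was named for 10, with 3 young-only, 2 aged-only and 5 in both, beside 43.1%, 23.5% and 33.3%. Of all genes with a peak, 1.43% carry the apical and 0.969% the basolateral term. The naming rule picks membrane proteins, so these shares are no result about solute carriers. SLC16A3, SLC2A1, SLC39A8, SLC46A1 and SLC4A7 carried both terms. These terms were chosen after the genes were known.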

How the data were processed

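Peaks of the young and the aged anti-m6A immunoprecipitate were analysed. Ovarian RNA was isolated with Trizol and sequenced from strand-specific libraries, per the labels' protocols. ChIPseeker and DESeq2 are named in the submitters' processing notes without a role. Aligner, peak caller, build and depth: not given in the sources used here. Per the file headers, the deposited tables hold for each peak a p-value and adjusted p-value, a fold enrichment (a linear ratio), log10 p columns treated as a score, and other columns of coordinates, width and label. The smallest fold was 1.5 and the largest p 0.049. Peaks of the same list with an equal p could differ in adjusted p, as those of SLC44A1 did. The adjusted p therefore does not order the peaks as p does.

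Peak starts, deposited counting from 0, were raised by 1. Gene identifiers matched a RefSeq table of assembly ARS-UI_Ramb_v3.0 for 99.5% of peaks. It gave chromosome numbers and gene names only. The 67 genes were sorted into 12 substrate groups by family number. Members, groups and lists were chosen with earlier results of these data known. Of the members 65 are named and the other 2 are not reported here by name, though they count in every total. Names come with position and adjusted p for the 5 highest folds in each list, genes with 2 peaks in a list and the leading overlapping pairs. An intron was counted where the genomic span exceeded the exonic width. Alternatives were a fold of at least 2, adjusted p up to 0.01, lists of equal length, other labels, members, overlap rules and strands. Overlap code was tested on simulated data. Tables were made with pandas 2.3.3 and numpy 2.4.6 under Python 3.11.15, intervals with scipy 1.17.1, figures with matplotlib 3.10.9.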

Additional observations from a re-analysis of the deposited data

How the results depend on the processing

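Of 48 values recomputed under alternative settings, 38 stayed within 1.5 times the count, or within the 95% interval of the share or median, as reported. With a fold of at least 2 in both lists, 24 young-only, 12 aged-only and 4 shared genes were left (over all genes 54.7%, 26.1% and 19.1%), 6.90% of young and 12.5% of aged member peaks overlapped the other list, median folds were 2.54 and 2.50, and 11.0% of the named solute carriers had a peak. The filter itself raises the medians and lowers the counts. With exon and UTR labels only, 16 young-only and 7 shared genes were left (over all genes 32.4% and 26.3%), a setting that removes the stop codon labels carried by 47.9% of young and 19.0% of aged member peaks. On the minus strand alone the aged stop codon share was 0%, and the cause was not tested. Adjusted p up to 0.01, lists of equal length, symbol-based membership, leaving out the scaffold gene, an overlap of 50%, either strand, peaks within 1 exon and the plus strand alone moved no value past these limits. No paired analysis was possible because only 1 list per age was used and the labels name no pairs of samples across the ages. Depth, which was not given, limits every statement that a gene lacked a peak.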

Other observations

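Some genes outside the naming rule were given a solute carrier symbol in the deposited tables, and 3 of these had peaks at both ages. LOC101112084, with the symbol SLC7A3 of a cationic amino acid transporter, had a young peak labelled stop codon (3.00) and an aged peak labelled 3′ UTR (2.06) on chromosome 14 (61494745 to 61494942 and 61494794 to 61495041). LOC101119634, with the symbol Slc26a10, had 1 young peak (2.25) and 2 aged peaks (1.91 and 1.92) on chromosome 3. TMEM44, with the symbol SLC66A1 of a lysosomal amino acid transporter, had 2 young peaks (2.14 and 3.20) and 1 aged peak (1.67) on chromosome 1. The names TMEM44 and SLC66A1 belong to different genes in common usage, and which of them the peaks lie in was not tested. LOC101120479, with the symbol SLC4A1AP of the kanadaptin gene, was aged-only (1.82).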
